A study of Oryza sativa Japonica Group with 15 samples.

Results

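UDP-sugars are the activated building blocks from which plants assemble the polysaccharides of the cell wall. UDP-glucose 4-epimerase turns UDP-glucose into UDP-galactose and back, and UDP-glucose 6-dehydrogenase oxidises UDP-glucose to UDP-glucuronic acid. From UDP-glucuronic acid, a decarboxylase makes UDP-xylose, and UDP-apiose/UDP-xylose synthase makes both sugars named in it. In grass walls, xylose and arabinose derived from it are the main sugars of xylan and arabinoxylan.

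The members described here were 6 rice genes that the study placed among its genes of wall precursor synthesis. They were the UDP-glucose 4-epimerase UGE-2 (Os08g28730), the UDP-glucose 6-dehydrogenases UGD3 (Os03g55070) and UGD4 (Os12g25690), the UDP-glucuronic acid decarboxylases Os05g29990 and Os01g62020, and the UDP-apiose/UDP-xylose synthase Os01g73790. They were 6 of 17905 genes that had a probe set of their own on the array, which holds 57381 probe sets. All 6 stand in the study's list of transcripts altered between the flanks at 6 h, and that list was drawn from these same arrays. Their direction at 6 h on these arrays is therefore not independent evidence, and it is given as a description together with the result of the fit. The study describes that list as also requiring a minimum fold change between the flanks, which calls here did not. By the values here only UGE-2 reached that minimum, and the others differed by 0.53 to 0.69 on the log2 scale. The probe set of Os05g29990 was also assigned by the study to a neighbouring locus, Os05g29974, annotated as a monoglyceride lipase, and its signal cannot be told apart between both loci. All 6 members passed the filter that kept the brighter 50% of probe sets by their mean over all arrays, and their means lay between the 86.5th percentile (Os01g62020) and the 98.9th percentile (UGD4) of all probe sets.

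The study followed gravitropism, the upward bending of a shoot laid on its side, in shoot bases of japonica rice (Oryza sativa). Seedlings aged 21 days and kept in darkness for 16 h beforehand were turned to the horizontal, without light by the sample descriptions and under weak green light by the study's methods. The 5 groups, with 3 biological replicates each, were the lower and the upper flank at 6 h after turning, the lower and the upper flank at 0.5 h after turning, and the whole shoot base at 0 h, before turning. No genotype, transgene or chemical distinguished them. Each RNA sample was a pool of many shoot bases or flank pieces, so p-values measure the spread between pools. The 0 h pools held whole shoot bases and no flank of an upright plant was analysed here, so time after turning, time out of daylight and the cutting of the base into flanks cannot be told apart in a comparison with 0 h.

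The deposited values were linear signal intensities, taken here to log2 and centred on the median of each array, so that 0 is the median probe set. Differences were tested with limma on 28620 probe sets, and calls were made where the p-value after Benjamini-Hochberg adjustment was under 0.05. The replicate 1 arrays stood apart from the rest in a spiked labelling control, DapX. It read 106.6 to 209 at its 5′ end, against 16.5 to 26.28 on the other 10 arrays. The array medians were 22.81 to 29.6 intensity units in replicate 1, against 17.16 to 23.05 on the others, and these ranges overlapped. Calls of the members that changed without the replicate 1 arrays are given with the value so obtained. The KNOX genes OSH1 and OSH71, which mark the shoot meristem, lay at the 99th and 97.8th percentile of all probe sets, and OSH15 was not matched to a probe set.

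UGE-2 had the largest difference between the flanks at 6 h among the members. Its log2 signal was 6.935, 6.86 and 6.73 in the lower flank at 6 h, against 5.62, 5.82 and 5.53 in the upper flank at 6 h. No array overlapped, and the lowest lower flank array was above the highest upper flank array by more than the range within either flank. The lower flank was 2.27-fold higher (log2 difference 1.18, SE 0.13, 95% interval 0.90 to 1.47, limma adjusted p = 0.0003177), with differences of 1.31, 1.04 and 1.20 in the 3 flank pairs of the same replicate number. Of all tested probe sets, 1.05% had a larger difference in this direction. In whole pieces of tissue such as these, fewer cells of a type and less RNA per cell cannot be told apart.

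**Figure D1:**
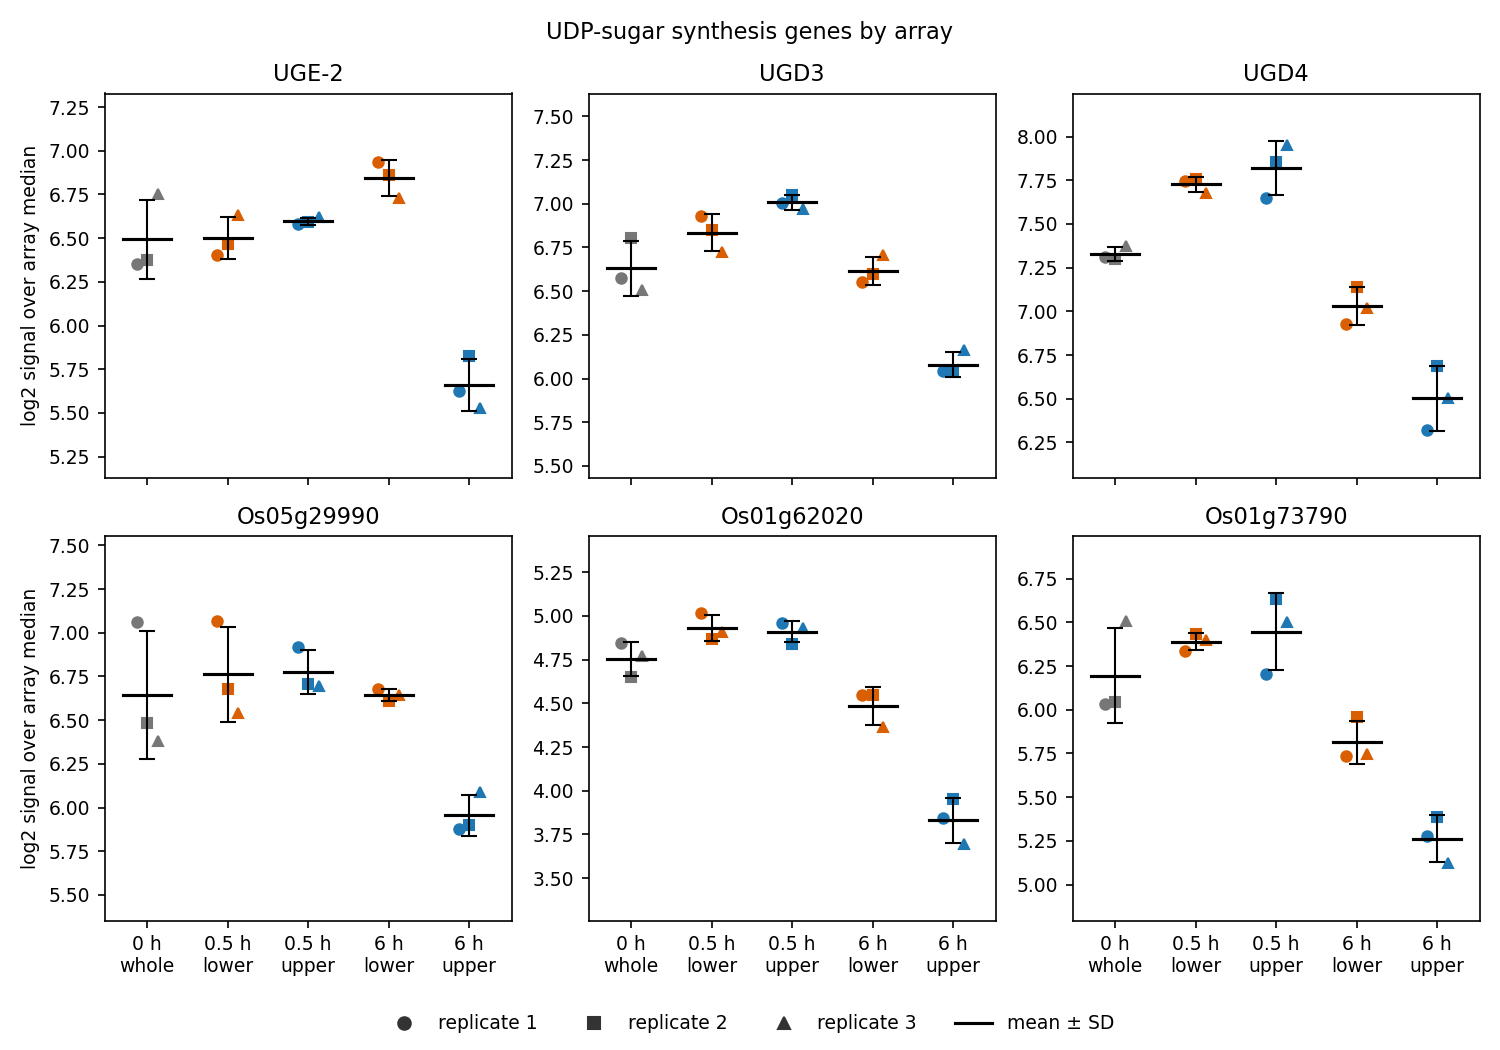
Log2 signal over the array median (vertical axes, each spanning the same range) of the 6 genes in whole shoot bases (0 h) and in both flanks after 0.5 h and 6 h (horizontal axis); symbols are the 3 replicates, and lines with bars are the mean ± SD. In each panel the 3 arrays of the 6 h upper flank are the lowest of all 15.

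No such difference was called for UGE-2 at 0.5 h. Its log2 signal was 6.40, 6.47 and 6.64 in the lower flank against 6.58, 6.59 and 6.62 in the 0.5 h upper flank, and the flanks overlapped (log2 difference -0.10, 95% interval -0.38 to 0.19, limma adjusted p = 0.992). At 0 h it was 6.35, 6.38 and 6.75. The flank difference at 6 h exceeded that at 0.5 h by 1.28 on the log2 scale (SE 0.19, 95% interval 0.87 to 1.68, limma adjusted p = 0.006617). UGE-2 was the only 1 of the 6 members called in this test of the change in flank difference, in which 0.496% of all probe sets were called in this direction. The call was lost without the 5 replicate 1 arrays (1.17, limma adjusted p = 0.1913), without centring (1.06, limma adjusted p = 0.4973) and without the filter on dim probe sets (limma adjusted p = 0.05918). Without centring, the median of all probe sets in this comparison was -0.22, against -0.005 with centring.

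Against 0 h, UGE-2 stood apart in the upper flank. The 6 h upper flank was lower than 0 h by 0.84 on the log2 scale, with no overlap (log2 difference -0.84, limma adjusted p = 0.0006918), while the 6 h lower flank was at 6.84 ± 0.10 and the 0 h shoot base at 6.49 ± 0.23 (SD, n = 3), which overlapped (log2 difference 0.35, limma adjusted p = 0.08293). Without the third 0 h array, which read highest of its group, the second difference was 0.48 and was called (limma adjusted p = 0.02602). UGE-2 was the only member whose mean in the 6 h lower flank was above its mean at 0 h.

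UGD3 and UGD4 encode enzymes of the step that opens the branch towards UDP-xylose. The log2 signal of UGD3 was 6.55, 6.60 and 6.70 in the lower flank at 6 h, against 6.04, 6.04 and 6.16 in the 6 h upper flank. The groups were apart, and the lower flank was 1.45-fold higher (log2 difference 0.54, SE 0.11, limma adjusted p = 0.02558). Its call was lost when any 1 of 5 arrays was left out, namely any of the upper flank arrays or replicates 2 or 3 of the 6 h lower flank (0.49 to 0.58, limma adjusted p 0.05881 to 0.1091), and without all replicate 1 arrays (0.55, limma adjusted p = 0.1796).

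At 0.5 h UGD3 read 6.93, 6.85 and 6.72 in the lower flank, against 7.004, 7.05 and 6.97 in the upper flank. Here the lower flank lay below the upper one in all arrays, by a difference that was not called (log2 difference -0.17, 95% interval -0.41 to 0.07, limma adjusted p = 0.992). The 0 h arrays read 6.58, 6.81 and 6.51. They were overlapped by the 6 h lower flank (log2 difference -0.01, limma adjusted p = 0.9508) and lay above the 6 h upper flank (log2 difference -0.55, limma adjusted p = 0.00322).

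UGD4 was measured at 6.93, 7.14 and 7.02 in the lower flank at 6 h, against 6.32, 6.69 and 6.50 in the upper flank at 6 h. Again the flanks were apart, with the lower one 1.44-fold higher (log2 difference 0.53, SE 0.12, limma adjusted p = 0.04837). This call stood close to the threshold: leaving out 1 array removed it in 13 of 15 fits (0.44 to 0.58, limma adjusted p 0.05553 to 0.201) and kept it without replicate 1 of the 0.5 h upper flank or replicate 2 of the 6 h upper flank, and it was lost without all replicate 1 arrays (0.49, limma adjusted p = 0.1693).

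UGD4 had its highest signals at 0.5 h in both flanks. They were 7.745, 7.76 and 7.68 on its lower side and 7.65, 7.86 and 7.95 in the upper flank at 0.5 h, against 7.31, 7.30 and 7.38 at 0 h. The flanks at 0.5 h overlapped each other (log2 difference -0.09, limma adjusted p = 0.992), and each lay above all 0 h arrays. The differences from 0 h were 0.40 for the lower flank (95% interval 0.14 to 0.66, limma adjusted p = 0.1229) and 0.49 for the upper flank (95% interval 0.23 to 0.75, limma adjusted p = 0.06457), neither of which was called. With the replicate number as a block, the lower flank difference was called (limma adjusted p = 0.04194). By 6 h UGD4 was lower than at 0.5 h in both flanks (lower flank, log2 difference -0.70, limma adjusted p = 0.001064; upper flank, log2 difference -1.32, limma adjusted p = 6.297e-06), and the second of these was the largest fall among the 6 members.

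The decarboxylases and the UDP-apiose/UDP-xylose synthase act on UDP-glucuronic acid. Os01g62020, the dimmest of the 6 probe sets, read 4.55, 4.55 and 4.36 in the lower flank at 6 h, against 3.85, 3.95 and 3.70 in the 6 h upper flank. The flanks were apart, and the lower flank was 1.57-fold higher (log2 difference 0.65, SE 0.11, limma adjusted p = 0.006939). The call was kept in all 15 fits that left out 1 array (limma adjusted p 0.008674 to 0.04349) and lost without all replicate 1 arrays (0.63, limma adjusted p = 0.1177).

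In the flanks at 0.5 h Os01g62020 read 5.02, 4.87 and 4.91 in the lower flank, against 4.96, 4.84 and 4.93 in the upper flank, and at 0 h it read 4.85, 4.65 and 4.77. The flanks at 0.5 h overlapped each other. The lower one lay above all 0 h arrays (log2 difference 0.18) and the upper one overlapped them (log2 difference 0.16), and neither difference was called. All 3 arrays of the 6 h lower flank lay below those at 0 h (log2 difference -0.27, limma adjusted p = 0.1044, not called), and those of the upper flank lay lower still (log2 difference -0.92, limma adjusted p = 9.623e-05). A second probe set of this gene was too dim to be tested. Its means were -0.88 in the lower and -2.09 in the upper flank at 6 h, below the array median in both.

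Os05g29990 gave 6.68, 6.61 and 6.64 in the lower flank at 6 h, against 5.88, 5.90 and 6.09 in the 6 h upper flank. The flanks did not overlap, but the difference of 0.69 (SE 0.18, 95% interval 0.30 to 1.08) missed the threshold (limma adjusted p = 0.09185). The arrays of the other groups were more scattered, at 7.07, 6.68 and 6.54 in the 0.5 h lower flank, 6.92, 6.71 and 6.69 in the 0.5 h upper flank and 7.06, 6.49 and 6.38 at 0 h. In these 3 groups replicate 1 read highest. With flank pairs as a block the 6 h difference was called (limma adjusted p = 0.01963), and it was also called without the first 0 h array (limma adjusted p = 0.03005). The 6 h upper flank was below all 0 h arrays and was called lower (log2 difference -0.69, limma adjusted p = 0.01452).

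Os01g73790 gave 5.74, 5.96 and 5.74 in the lower flank at 6 h, against 5.28, 5.39 and 5.12 in the 6 h upper flank. The flanks did not overlap, and the difference of 0.55 (SE 0.15, 95% interval 0.22 to 0.88) was not called (limma adjusted p = 0.1244) but was with flank pairs as a block (limma adjusted p = 0.03901). After 0.5 h the lower flank read 6.34, 6.43 and 6.40 and the upper flank 6.20, 6.63 and 6.50, and the 0 h shoot base read 6.03, 6.04 and 6.51. These 3 groups overlapped each other. Both flanks at 6 h lay below 0 h, the lower one by a difference that was not called (log2 difference -0.38, limma adjusted p = 0.1017) and the upper one by a called difference (log2 difference -0.93, limma adjusted p = 0.0009267).

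Over the 6 genes, 4 were called higher on the lower side at 6 h (UGE-2, UGD3, UGD4 and Os01g62020), against a background of 1.47% of all probe sets called higher. With flank pairs as a block all 6 were called, and only UGE-2 was without the replicate 1 arrays, without centring, without the filter, or in a fit of only the arrays compared. All 6 had flanks that did not overlap with the lower flank above, a pattern that 7.42% of all probe sets showed. The median log2 difference was 0.60 over the members and -0.08 over all probe sets. Since the study chose these genes as altered between these flanks, the counts describe that choice and are no separate test of it.

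**Figure D2:**
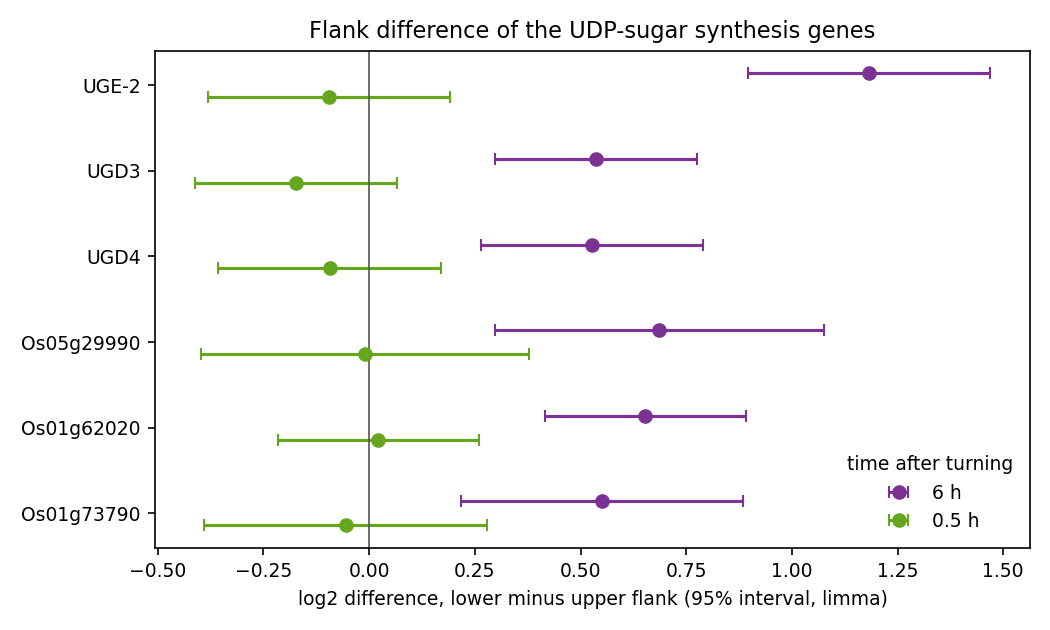
Log2 difference between lower and upper flank (horizontal axis, lower minus upper) of each gene at 6 h and at 0.5 h, with 95% intervals from limma. All 6 intervals at 6 h lie above 0, with UGE-2 farthest at 1.18, and all 6 intervals at 0.5 h include 0.

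At 0.5 h none of the 6 genes was called between the flanks by limma, where 0.00699% of all probe sets were called in either direction, and 0 of the 6 had an unadjusted p under 0.05, against 3.2% of all probe sets. The members' log2 differences lay between -0.17 and 0.02 with a median of -0.07, beside a median of -0.08 over all probe sets. UGD3, with its lower flank below, was the only 1 of the 6 whose flanks did not overlap, and 7.12% of all probe sets had that pattern. The limits of the 95% intervals ran from -0.41 to 0.38. They are not a limit of detection, and the size of difference that 3 arrays per flank could call was not tested. At 6 h a difference of 0.69 (Os05g29990) was not called. Apart from UGE-2, the change of the flank difference between 0.5 h and 6 h was 0.61 to 0.71 on the log2 scale and was not called (limma adjusted p 0.08145 to 0.563).

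Every member was lowest in the upper flank at 6 h. In each of the 6 genes, by the probe set used, all 3 arrays of that group read below all 12 other arrays, which held for 3.67% of all probe sets. The choice of these genes by their flank difference at 6 h favours this pattern, so it is no separate test. The order of the other groups differed among the members. UGD3, UGD4, Os05g29990 and Os01g73790 had their highest mean in the upper flank at 0.5 h, and Os01g62020 had it in the 0.5 h lower flank, although in UGD4, Os05g29990, Os01g62020 and Os01g73790 the highest group overlapped the next one. In UGD3 those leading groups did not overlap, yet their difference was not called. UGE-2 alone had its highest mean in the lower flank at 6 h.

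Against 0 h, all 6 genes were called lower in the upper flank at 6 h (limma adjusted p 9.623e-05 to 0.01452), where 15.4% of all probe sets were called lower. In all 6 the upper flank arrays lay below those at 0 h without overlap, as in 23.9% of all probe sets. The median difference was -0.83, beside -0.08 over all probe sets, and the 0 h signals were 1.46-fold (UGD3) to 1.91-fold (Os01g73790) those of the upper flank. None of the 6 was called in the lower flank at 6 h by limma, where 20.5% of all probe sets were called in either direction. Their differences were 0.35 for UGE-2, -0.01 for UGD3, -0.30 for UGD4, close to 0.00 for Os05g29990, -0.27 for Os01g62020 and -0.38 for Os01g73790, and 4 of the 6 had an unadjusted p under 0.05 (UGE-2, UGD4, Os01g62020 and Os01g73790), as had 33.0% of all probe sets. UGD4, Os01g62020 and Os01g73790 lay below 0 h without overlap, as did 22.7% of all probe sets. These comparisons share the 0 h arrays with each other and the 6 h arrays with the flank comparison, so they are the same values read another way. The upper flank calls of all 6 were kept in each of the 15 fits that left out 1 array, while without centring those of UGD3 (limma adjusted p = 0.07877) and Os05g29990 (limma adjusted p = 0.1431) were lost.

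**Figure D3:**
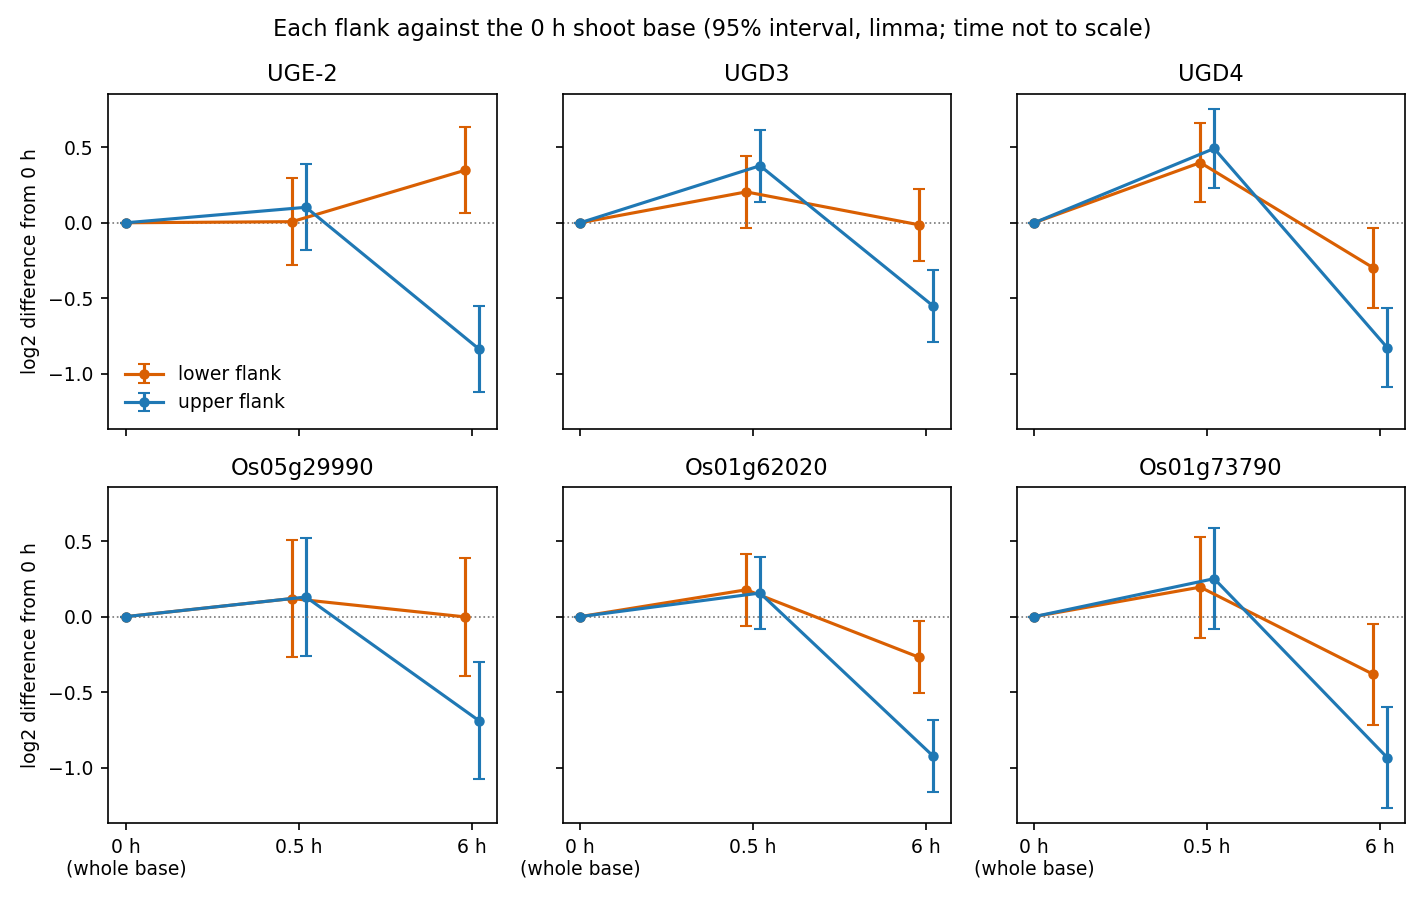
Log2 difference from the 0 h shoot base (vertical axis) of the lower and the upper flank of each gene at 0.5 h and 6 h (horizontal axis, not to scale), with 95% intervals from limma that include the spread of the 0 h arrays. At 6 h the upper flank interval lies below 0 in all 6 panels, and the lower flank is above 0 only in UGE-2.

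At 0.5 h none of the 6 genes was called by limma against 0 h in either flank, where 1.63% of all probe sets were called for the lower flank and 1.68% for the upper one. All 6 differences were above 0 in both flanks, from 0.01 to 0.40 on the lower side and from 0.10 to 0.49 on the upper side, and UGD4 was the highest in both. Arrays lay above those at 0 h without overlap for 2 of the 6 in the lower flank (UGD4 and Os01g62020; 5.15% of all probe sets) and for 2 in the upper flank (UGD3 and UGD4; 6.86%). An unadjusted p under 0.05 was found for 1 of the 6 in the lower flank (UGD4) and for 2 in the upper flank (UGD3 and UGD4), against 17.1% and 15.6% of all probe sets.

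Between 0.5 h and 6 h all 6 genes were called lower in the upper flank (limma adjusted p 6.297e-06 to 0.003694), by 0.82 (Os05g29990) to 1.32 (UGD4) on the log2 scale, where 18.9% of all probe sets were called lower, and all 6 were lower without overlap, as were 26.9%. In the lower flank 3 were called lower over the same time, UGD4, Os01g62020 and Os01g73790, where 13.5% of all probe sets were called lower. Os01g62020 was lower by 0.45 (log2 difference -0.45, limma adjusted p = 0.009547) and Os01g73790 by 0.58 (log2 difference -0.58, limma adjusted p = 0.01529). The call of Os01g73790 was lost without replicate 2 of the 0.5 h lower flank or replicate 3 of the 6 h lower flank (limma adjusted p = 0.05249 and 0.05102), and without the replicate 1 arrays only UGD4 was called, with Os01g62020 at -0.44 (limma adjusted p = 0.05654) and Os01g73790 at -0.57 (limma adjusted p = 0.06784). UGE-2, UGD3 and Os05g29990 had lower flank differences of 0.34, -0.22 and -0.12 that were not called, and in UGE-2 the 6 h arrays were all above those at 0.5 h, as in 17.2% of all probe sets. Over the 6 members, 4 had 6 h arrays all below those at 0.5 h there, as in 21.2%.

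Over the 15 arrays the log2 signals of the 6 genes correlated with each other at 0.622 (UGE-2 and UGD4) to 0.953 (UGD4 and Os01g73790), with a median of 0.824 over the 15 pairs. Points of these correlations share the 5 group means and the array scaling. After the group means were taken out, the correlations ran from -0.744 (UGE-2 and UGD3) to 0.687 (UGE-2 and Os01g73790) with a median of 0.123, so that replicates of 1 group did not move together across the members as a whole.

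The transcripts whose profile was most like that of UGE-2 over the 15 arrays included a wall gene and an auxin gene. They were LOC4335013, listed by the study as a pectate lyase (r = 0.977), TAR2, also named FIB, a tryptophan aminotransferase of auxin synthesis (r = 0.952), LOC4337166 (r = 0.942), LOC4338600, which the study lists as a ribonucleoprotein (r = 0.941), and LOC4326916, which it lists as a blue copper protein (r = 0.94). Their log2 differences between lower and upper flank at 6 h were 1.69, 1.62, 2.30, 0.61 and 1.46, and limma called all 5, where 1.47% of all probe sets were called higher. The 5 most like the mean standardised profile of the 6 genes were LOC4346797 (r = 0.976), LOC4343869 (r = 0.973), LOC4332574, listed as a COBRA-like protein (r = 0.973), LOC4339617, listed as a fasciclin-like arabinogalactan protein (r = 0.973), and LOC4330104 (r = 0.971). Their differences at 6 h were 0.45 to 1.15 on the log2 scale. The r-values are over 15 arrays that share the 5 groups. These transcripts were chosen by likeness on the same arrays, which favours a flank difference at 6 h, so their differences and calls are no separate test.

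Of 11 other rice genes with a symbol in nucleotide-sugar synthesis, 8 had a probe set, and none was called between the flanks at 6 h by limma. The 8 were phosphoglucomutase, UDP-sugar pyrophosphorylase, the epimerases UGE-1, UGE-3 and UGE-4, the dehydrogenase UGD5 and the UDP-arabinopyranose mutases UAM1 and UAM3, while UGD1, UGD2 and UAM2 had none. Their median difference was 0.19 with 5 of 8 above 0, and 2 of the 8 had an unadjusted p under 0.05. Over all 28620 probe sets the median was -0.08, 10873 were above 0 and 11.4% had an unadjusted p under 0.05. UAM3, whose enzyme makes the furanose form of UDP-arabinose, read 6.00, 6.01 and 5.60 in the lower flank at 6 h, against 5.34, 5.50 and 5.12 in the 6 h upper flank. These did not overlap, and the difference of 0.55 was called with flank pairs as a block (limma adjusted p = 0.03041) and not without (limma adjusted p = 0.1117). Its dimmer second probe set did not show it (-0.22, limma adjusted p = 0.6834).

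UGD5 (Os12g25700) lies beside UGD4 on chromosome 12 with no protein-coding gene between them in the RefSeq annotation. Its brightest probe set, of a type whose probes may match other transcripts, read 5.86, 6.04 and 6.11 in the lower flank at 6 h, against 5.91, 5.87 and 5.48 in the 6 h upper flank. The flanks overlapped there (log2 difference 0.25, limma adjusted p = 0.5619). The probe set in the study's list read 3.76, 3.56 and 3.41 in the lower flank, against 3.08, 2.83 and 2.79 in the upper flank at 6 h, without overlap (0.67, limma adjusted p = 0.1008, or 0.0162 with flank pairs as a block). The third gave 0.28 (limma adjusted p = 0.6177). Against 0 h all 3 were called lower in the upper flank at 6 h, by 0.62 to 1.05 on the log2 scale (log2 differences -0.68, -1.05 and -0.62), as was UGD4.

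Phosphoglucomutase (Os03g50480), which interconverts the glucose phosphates ahead of UDP-glucose, also differed between its probe sets. The bright probe set read 7.29, 7.30 and 7.22 in the lower flank at 6 h, against 7.29, 7.10 and 7.02 in the 6 h upper flank, and the flanks overlapped (log2 difference 0.14, limma adjusted p = 0.6215). The probe set in the study's list was near the array median, at 0.95, 0.83 and -0.61 in the lower flank, against -1.34, -3.25 and -0.85 in the upper flank at 6 h. It gave a difference of 2.20 that was not called (SE 0.59, limma adjusted p = 0.1016), on signals of 1.88 to 44.2 intensity units.

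**Figure D4:**
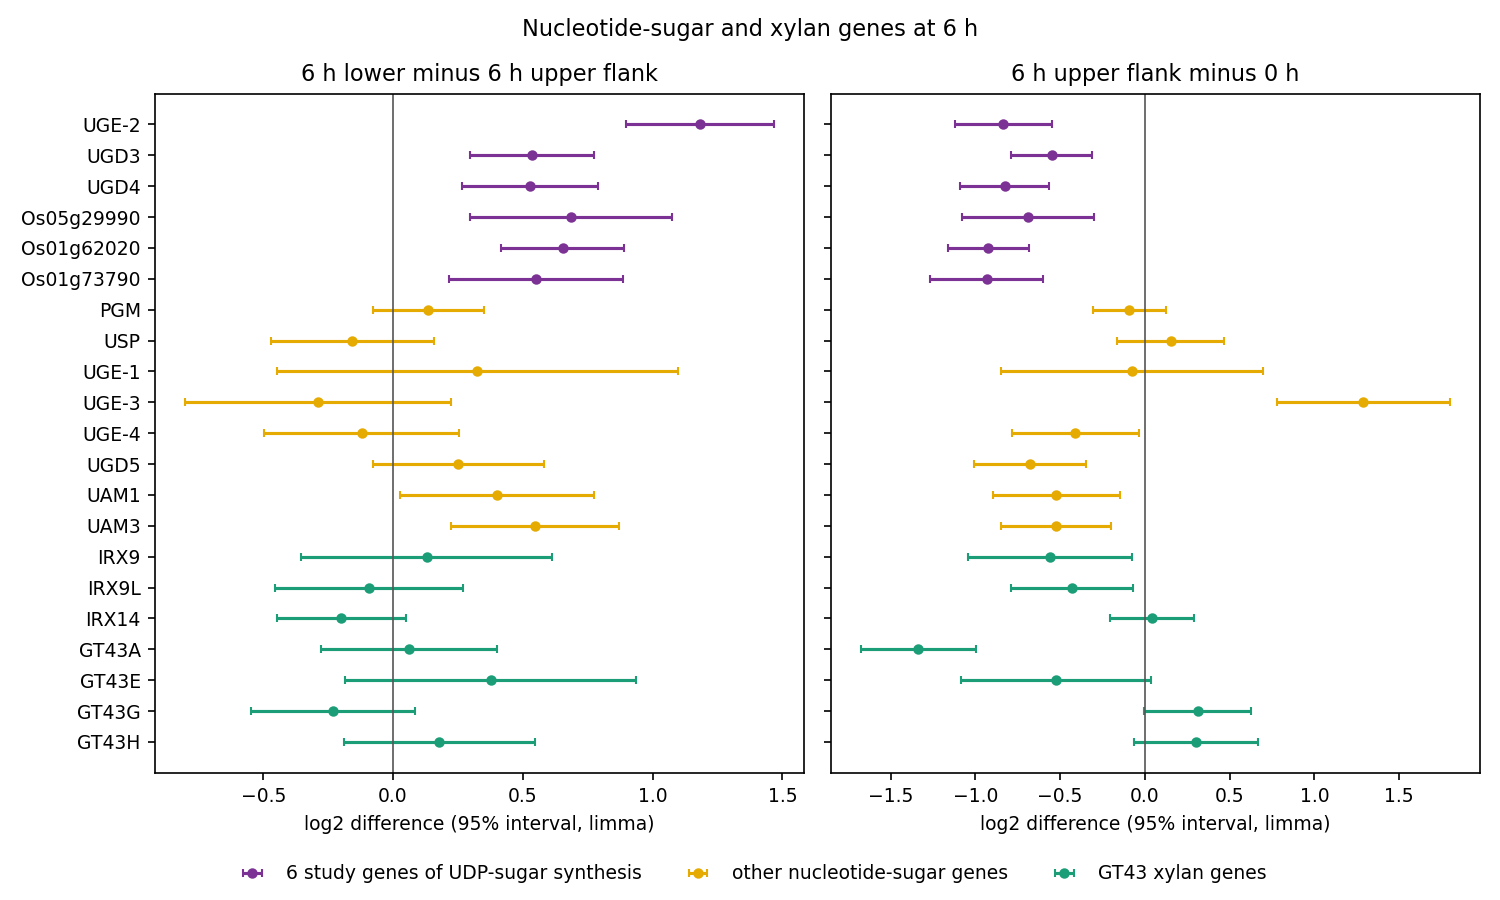
Log2 difference with 95% intervals from limma (horizontal axes) between lower and upper flank at 6 h (left) and between the 6 h upper flank and 0 h (right) of the 6 genes, of 8 other nucleotide-sugar genes and of 7 GT43 glycosyltransferases, each by its brightest probe set. The 6 genes lie above 0 on the left and below 0 on the right, and UGE-3 lies above 0 on the right.

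Against 0 h, the values of the other genes at 6 h lay on both sides of 0. Of the 8 other genes, UGD5, UAM1 and UAM3 were called lower in the upper flank at 6 h (log2 differences -0.68, -0.52 and -0.52), where 15.4% of all probe sets were called lower. The epimerase UGE-3 was called higher there, by 1.29 (SE 0.24, limma adjusted p = 0.001823). None of the 3 lower calls was kept with no centring (limma adjusted p 0.0742 to 0.2877) or with only the arrays compared (limma adjusted p 0.06905 to 0.1031), and only that of UGD5 was with no filter on dim probe sets. With 1 array left out, UGD5 was called in all 15 fits, whereas the call of UAM1 was lost in 9 (limma adjusted p up to 0.1757) and that of UAM3 in 2, without replicate 3 of the 0 h shoot base (limma adjusted p = 0.09498) or of the 6 h upper flank (limma adjusted p = 0.09924). UAM3 also lost it without all replicate 1 arrays (limma adjusted p = 0.1024), and UAM1 with quantile scaling (limma adjusted p = 0.06248) and with 16 added to the signal (limma adjusted p = 0.09802). The higher call of UGE-3 was kept in all 15 of those fits. UGE-3 was also higher in the 6 h lower flank than at 0 h, by 0.999 (limma adjusted p = 0.009927), a call lost with no centring (limma adjusted p = 0.08953) or with only the arrays compared (limma adjusted p = 0.06483). Its log2 signal was 2.19, 1.73 and 2.57 in the 6 h lower flank and 2.64, 2.09 and 2.63 in the 6 h upper flank, against 1.44, 0.92 and 1.13 at 0 h. Both flanks lay above all 0 h arrays and overlapped each other, whereas UGE-2 was lower than 0 h in the upper flank and higher in the lower flank than in the upper flank. UGE-4 was called lower in the 6 h lower flank than at 0 h (log2 difference -0.53, limma adjusted p = 0.04683), where 20.5% of all probe sets were called in either direction. That call was lost in 12 of the 15 fits that left out 1 array (limma adjusted p up to 0.1622). It was also lost with no filter, with only the arrays compared, and without all replicate 1 arrays (-0.42, limma adjusted p = 0.1081).

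Among users of UDP-xylose, 7 of 9 glycosyltransferases of family GT43, whose members act in xylan synthesis, had a tested probe set. None was called between the flanks at 6 h by limma, none had an unadjusted p under 0.05, and their median difference was 0.06, from -0.23 (GT43G) to 0.38 (GT43E). Over all probe sets, 11.4% had an unadjusted p under 0.05 and the median was -0.08. Dimmer second probe sets gave 0.04 for GT43E (limma adjusted p = 0.9725) and -0.46 for IRX9L (limma adjusted p = 0.4789). Against 0 h, GT43A was called lower in both flanks at 6 h, with log2 differences of -1.28 (lower flank) and -1.34 (upper flank). Of all probe sets, 15.4% were called lower than 0 h in the upper flank, and 20.5% in either direction in the lower flank. IRX9L was called lower than 0 h in the lower flank (log2 difference -0.52, limma adjusted p = 0.04284). That call of IRX9L was lost in 10 of the 15 fits that left out 1 array (limma adjusted p up to 0.1519), with no filter, with only the arrays compared, and without all replicate 1 arrays (-0.45, limma adjusted p = 0.1028), while its second probe set was called lower than 0 h in both flanks (lower flank -1.29, limma adjusted p = 0.001908; upper flank -0.83, limma adjusted p = 0.02066). By the brightest probe set of each gene, in none of the 7 were all 3 arrays of the 6 h upper flank the lowest of the 15. That was seen in all 6 members and in UAM1 and UAM3 of the 8 other nucleotide-sugar genes. The probe sets of UGD5 and phosphoglucomutase in the study's list showed it too, the second one near the array median. The dim second probe set of Os01g62020 did not. The members were taken from the study's list of transcripts altered between these flanks, which favours that pattern, so the contrast is no separate test.

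Markers of other cells and signs of RNA quality were set beside these results. The cellulose synthases CESA4, CESA7 and CESA9, which mark cells that lay down secondary walls, differed between the flanks at 6 h by -0.09, -0.16 and 0.09 on the log2 scale and none was called. All 3 were called lower than at 0 h in both flanks at 6 h. Of all probe sets, 15.4% were called lower than 0 h in the upper flank, and 20.5% in either direction in the lower flank. A second probe set of CESA4 gave 0.43 between the flanks (limma adjusted p = 0.3762). Their summed linear signal, as a multiple of the array median, was 60.7 to 87.0 in the 6 h lower flank and 70.7 to 88.4 in the 6 h upper flank, against 136.8 to 190.8 at 0 h. The 5 markers of green tissue summed to 47.9 to 57.2 in the 6 h lower flank and 51.1 to 55.6 in the 6 h upper flank, and RBCS-A stayed at or below the array median on all arrays. Behind those sums the single green markers went different ways: RCABP89 was higher in the lower flank without overlap (0.81, limma adjusted p = 0.3899), RBCS-C was lower there without overlap (-0.46, limma adjusted p = 0.3598), CAB2R and RCABP69 gave -0.18 and -0.15 with overlap, and none of the 4 was called. Against 0 h, RBCS-C was called higher in the 6 h upper flank (0.56, limma adjusted p = 0.04761) and RCABP69 lower in the 6 h lower flank (-1.16, limma adjusted p = 0.04549). Other tested probe sets of RBCS-C did not show either difference. Between the flanks at 6 h they gave 0.08 and 0.03, with overlap. In the 6 h upper flank against 0 h they gave -0.56 (limma adjusted p = 0.1368) and -0.20 (limma adjusted p = 0.7247). The meristem markers OSH1 and OSH71 gave -0.17 and -0.21 between the flanks at 6 h and were not called. OSH71 was called higher in the 6 h upper flank than at 0 h (0.41, limma adjusted p = 0.01211), where all 6 members were called lower, and OSH1 was not called (0.10, limma adjusted p = 0.6236). Control probe sets along rice transcripts gave lower minus upper differences at 6 h of 0.16 to 0.99 for actin and 0.43 to 0.60 for cyclophilin on the log2 scale, and of -0.09 to 0.03 for ubiquitin. For the elongation factor EF1a the 5′, middle and 3′ probe sets gave -0.02, 2.04 and 0.34. GAPDH has 2 sets of control probe sets, and the 5′, middle and 3′ ones gave 0.62, 0.42 and 0.05 in one and -1.04, 0.82 and 0.01 in the other. The part of any of these in the members' differences was not tested.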

How the data were processed

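RNA of 15 pools was amplified and biotin-labelled by the authors and hybridised to a rice oligonucleotide array with probes of 1 colour. The authors deposited linear signal intensities per probe set, made with the MAS5 algorithm per the labels; no source used here states the scaling target, and amplification favours the 3′ ends of transcripts. The intensity values were taken to log2 here and centred on each array's median, 123 control probe sets were left out and the brighter 50% by mean were kept (28620). The number of arrays limits the precision. limma 3.58.1 in R 4.3.3 fitted 1 mean per group over all 15 arrays, with 10 residual and 2.68 prior degrees of freedom, and p-values were adjusted by Benjamini-Hochberg within each of 9 comparisons. The script was first tested on simulated data.

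Genes were named through the platform annotation given: 22436 probe sets had 1 gene, 95 several and 34850 none. For a gene with several probe sets, the brightest was used. Other probe sets of the members, UGD5, phosphoglucomutase, UAM3, GT43E, IRX9L and CESA4, and tested ones of RBCS-C, are given beside it. The members and gene lists were chosen with earlier results of these data known. Always named were the 6 members, their further probe sets, UGD5, phosphoglucomutase, and the 5 transcripts most correlated with UGE-2 and with the members' mean profile; UAM1, UAM3, UGE-3, UGE-4 and the GT43 genes were named after their values were seen.

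Deviations from the group means of same-numbered arrays correlated at 0.224 to 0.5 between the flanks at 0.5 h, at 0.262 to 0.477 between the flanks at 6 h and at 0.155 to 0.417 between the 0.5 h lower flank and 0 h, each over 0.1, so a fit with the replicate number as a block was given beside those comparisons where it changed a call. Alternatives were quantile scaling, no centring, no filter, 16 added to the signal, only the arrays compared, an intensity trend, the block, and each array left out; leaving out all replicate 1 arrays was chosen after seeing the data. No sequences are printed, since none were used here.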

Additional observations from a re-analysis of the deposited data

Results flagged for a closer look

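UGE-2 differed between the flanks in another way at 6 h than at 0.5 h, by the test of that difference itself. Its lower minus upper difference was 1.18 at 6 h and -0.10 at 0.5 h on the log2 scale, and the 6 h value exceeded the 0.5 h value by 1.28 (limma adjusted p = 0.006617). The 3 pairs of the same replicate number gave 1.31, 1.04 and 1.20 at 6 h, and -0.18, -0.12 and 0.02 at 0.5 h. Over the 15 fits that left out 1 array the value was 1.21 to 1.36 (limma adjusted p 0.003565 to 0.02754), and without the 5 replicate 1 arrays it was 1.17 and not called (limma adjusted p = 0.1913). It was also not called without centring (1.06, limma adjusted p = 0.4973), where the median of all probe sets was -0.22, or without the filter on dim probe sets (limma adjusted p = 0.05918). The study listed UGE-2 for its flank difference at 6 h on these same arrays, so this test is not independent of that choice.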

How the results depend on the processing

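Of the single-gene results, 770 of 810 kept direction and call with 1 array left out (20 lost a call, 3 gained one, 17 turned sign), and 331 of 378 under the other settings (18 lost, 18 gained, 11 turned). The count of members called higher on the lower side at 6 h was 4, and 1 (UGE-2) with no centring, with no filter, with only the arrays compared, and without the replicate 1 arrays; it was 2 to 4 with 1 array left out, and 2 without replicates 1 or 3 of the upper or 2 or 3 of the lower flank at 6 h. Os01g73790 was called there with quantile scaling (0.60, limma adjusted p = 0.04299) and Os05g29990 with a trend (limma adjusted p = 0.04279). The change in flank difference was called for 1 member, for 0 with no centring, no filter or without the replicate 1 arrays, for 2 with an intensity trend, and for 1 throughout with 1 array left out. In the 6 h lower flank against 0 h, 0 became 1 with 16 added (UGD4), 2 with a trend (UGE-2, UGD4), 1 with the replicate block (UGD4), and 0 to 1 with 1 array left out. At 0.5 h against 0 h, 0 became 1 (UGD4) in the lower flank with quantile scaling, 16 added or the replicate block, and in the upper flank with these or a trend. In the lower flank from 0.5 h to 6 h, 3 became 1 (UGD4) with no filter or without the replicate 1 arrays, and 2 to 4 with 1 array left out; Os01g62020 lost its call with only the arrays compared (limma adjusted p = 0.06465), UGD3 was called with 16 added (-0.35, limma adjusted p = 0.04621) and UGE-2 with a trend (0.34, limma adjusted p = 0.04456). In the upper flank at 6 h against 0 h, UGD3 (limma adjusted p = 0.07877) and Os05g29990 (limma adjusted p = 0.1431) lost their calls with no centring, and Os05g29990 also with no filter (limma adjusted p = 0.05806) or only the arrays compared (limma adjusted p = 0.07443). The replicate block changed no other call of the members than those given here and for Os05g29990 and Os01g73790 at 6 h; in comparisons other than the 3 named as paired the samples share only a number. Without centring, the median of all probe sets moved by over 0.1 in the 0.5 h flank comparison (0.14, against -0.08), so signs near 0 turned: there UGE-2 was 0.12, UGD3 0.045, UGD4 0.12, Os05g29990 0.21 and Os01g73790 0.16. That median also moved in the change of flank difference (-0.22, against -0.005) and in the 0.5 h lower flank against 0 h (0.16, against -0.118). From 0.5 h to 6 h it moved in the lower flank (-0.351, against -0.026) and in the upper flank (-0.151, against -0.041). With quantile scaling, Os05g29990 was 0.053 and Os01g73790 0.021 between the 0.5 h flanks, and UGD3 0.014 and Os05g29990 0.031 in the 6 h lower flank against 0 h. With 16 added, Os05g29990 was 0.081 and Os01g73790 0.036 between the 0.5 h flanks. Without the replicate 1 arrays, Os05g29990 was 0.19 (6 h lower flank against 0 h) and 0.013 (lower flank, 6 h against 0.5 h), and UGE-2 -0.015 (0.5 h lower flank against 0 h). With 1 array left out, signs turned within these ranges: between the 0.5 h flanks Os05g29990 -0.16 to 0.10, Os01g62020 -0.021 to 0.052 and Os01g73790 -0.18 to 0.038; 6 h lower flank against 0 h UGD3 -0.074 to 0.0745 and Os05g29990 -0.13 to 0.21; 0.5 h against 0 h UGE-2 -0.064 to 0.14 and Os05g29990 -0.032 to 0.33 (lower flank), Os05g29990 -0.00098 to 0.34 (upper flank); lower flank, 6 h against 0.5 h, Os05g29990 -0.23 to 0.030. The cause of the other changes was not tested.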
